A study of Mus musculus with 6 samples.

Results

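Leukaemia driver and fusion partner genes were examined in haematopoietic progenitors that lack Nr4a1 and Nr4a3. The set comprised 10 genes that are mutated, fused or overexpressed in acute myeloid leukaemia: Mn1, Runx1, Cbfb, Runx1t1, Npm1, Nf1, Wt1, Evi2a, Myc and Sox4. The HOX, MEIS, MECOM, C/EBP and DNA methylation genes were not included. All probe sets annotated to 1 of these symbols alone were taken, 31 of 45037 after control probe sets were left out, for 10 of 18193 named genes. RNA came from lineage-negative, Sca1-positive bone marrow cells of mice aged 2 to 3 weeks, with 3 arrays of wild-type (WT) mice and 3 of Nr4a1 Nr4a3 double knockout (DKO) mice. Between 10 and 20 mice contributed to each pool of RNA, and replicate error here means differences from pool to pool. The DKO animals were bred from single mutants of Nr4a1 and Nr4a3 on a hybrid of C57BL/6 and 129SvJ, and the labels give no strain for the WT animals. The deletions were carried by every cell of the animal, and the labels do not say whether any pool held overt leukaemic cells.

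The NR4A proteins are orphan nuclear receptors, transcription factors that are induced by many signals and that restrain the proliferation of stem cells. Mice that lack Nr4a1 and Nr4a3 together are known to develop a rapid myeloid leukaemia. The leukaemia genes act at different levels. RUNX1 and its partner CBFB form core-binding factor, which switches on blood cell genes, and chromosomal fusions such as that of RUNX1 to RUNX1T1 turn it into a repressor. MN1, MYC and SOX4 promote leukaemia when their levels are high, whereas NF1 restrains RAS signalling and NPM1 and WT1 are targets of mutation.

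Of the 10 genes, 1 fell, Mn1, and 0 rose by limma's moderated test with Benjamini-Hochberg adjustment over all probe sets, at a threshold of 0.05. Tests were made on log2(signal + 16), after removing the dimmest 40% of all probe sets. Over all genes 1.71% changed, 0.633% having fallen and 1.08% risen. At an unadjusted p of 0.05, 2 genes were lower, Mn1 and Sox4, and 1 was higher, Myc, where 16.3% of all genes met this level, 8.65% lower and 7.61% higher. Wt1 and Runx1t1 were too dim to be tested. The 8 tested genes, each taken by its brightest probe set, had a median log2 difference of 0.020, with 4 lower and 4 higher in DKO, where 50.8% of all genes were lower. The groups did not overlap in 3 of the 8, Mn1, Sox4 and Myc, against 22.0% of all genes. Of the 31 probe sets, 19 were bright enough to be tested and 1 of these fell and 0 rose. Of all probe sets 1.37% changed, 0.563% having fallen and 0.807% risen. Among the 19 tested probe sets 8 were lower and 11 higher, where all probe sets gave 54.4% and 45.6%. The groups did not overlap in 5 of the 19, 1 of them higher in DKO, against 19.8% of all probe sets, of which 11.1% were lower and 8.76% higher. The plots of signal by array and of the 19 differences show these values.

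**Figure D1:**
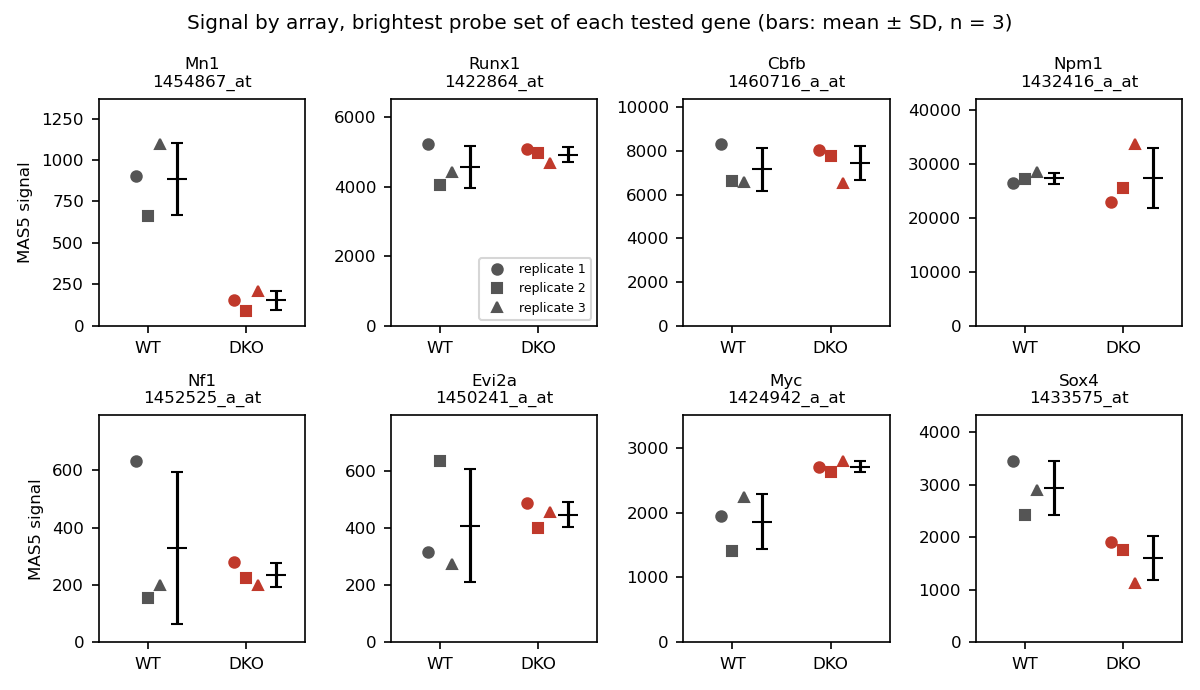
MAS5 signal (vertical axis, linear from 0) in each of 3 WT arrays (grey) and 3 DKO arrays (red) for the brightest probe set of the 8 tested genes, with mean and SD beside the points. Mn1 runs from 660.9 to 1094.7 across the WT arrays and from 92.4 to 212.4 across the DKO arrays, and Sox4 and Myc are the other panels in which the groups do not overlap.

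**Figure D2:**
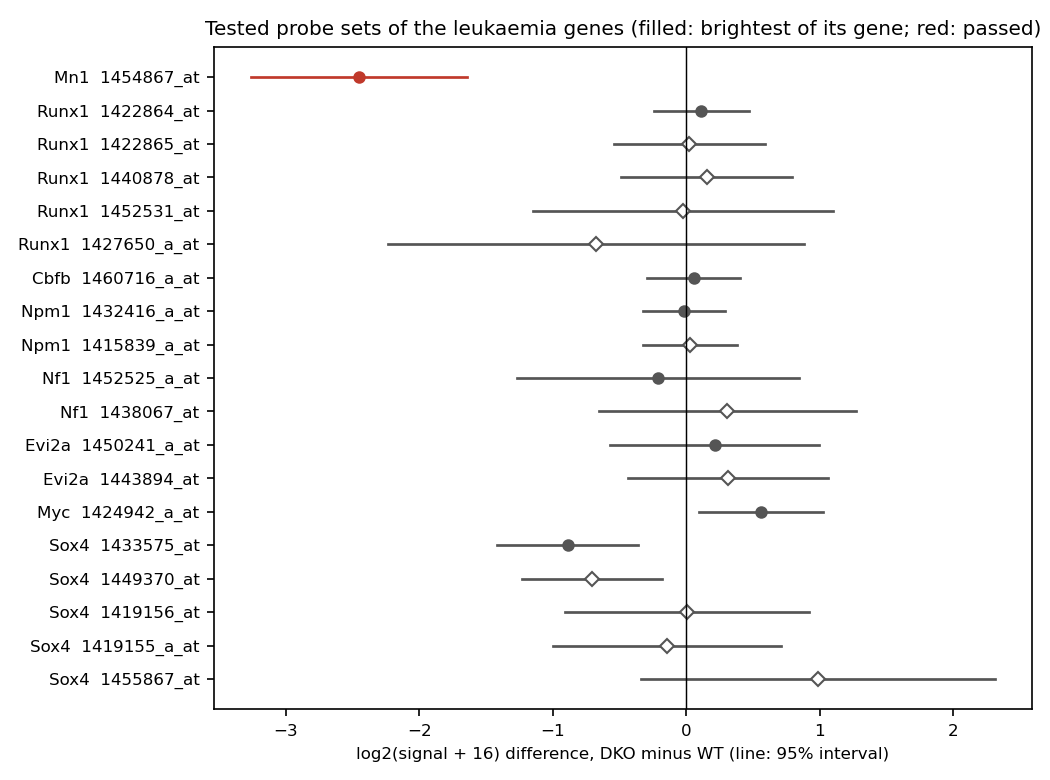
Log2(signal + 16) differences, DKO minus WT (horizontal axis), with 95% intervals for the 19 tested probe sets. Only the Mn1 probe set, at -2.45, passed the threshold, while the Npm1 probe sets lie at -0.017 and 0.028 and that of Cbfb at 0.056.

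The labels were checked on the targeted genes. Nr4a1 signal was 1065 ± 230 (SD, n = 3) in WT and 21.4 ± 12.9 (n = 3) in DKO. Nr4a3 lay below the filter at all 3 of its probe sets and gave no check. All 11 stem cell markers that had a probe set of their own were bright enough to be tested, and the sort marker Ly6a was not analysed here. The WT arrays differed among themselves in markers of maturing cells. For neutrophil, B lineage and erythroid markers WT replicate 2 was highest and WT replicate 3 lowest. On a log2 scale centred gene by gene, these markers averaged 1.65, 1.45 and 1.66 in WT replicate 2, -0.060, 0.26 and 0.18 in WT replicate 1, and -1.46, -0.28 and -1.71 in WT replicate 3. This order did not hold for every list. Megakaryocyte markers averaged 0.60, -1.02 and 0.14 in WT replicates 1 to 3. WT replicate 1 was the lowest WT array for T and NK cell markers (-1.71) and for monocyte, macrophage and dendritic cell markers (-1.08). In WT replicate 2, 5 of the 8 tested leukaemia genes had their lowest WT signal and 1, Evi2a, its highest. None of the 10 genes lies within 10 Mb of Nr4a1 or Nr4a3.

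The start-site sequences used here covered 4 of the 10 genes, Runx1, Sox4, Cbfb and Nf1, in 5 entries, with none for Mn1. Those of Runx1 and Sox4 are shown, Runx1 because it has 2 separate starts and no change called. Sox4 is shown because it had the second-largest difference among the tested genes. The 250 bases before each start (assembly GRCm38.p6, minus strand, 5′ to 3′) carry in capitals the matches to the CCAAT box, letters CCAAT, and to the E-box that MYC binds, letters CACGTG, on either strand. In the distal Runx1 window the E-box and a CCAAT box adjoin. The windows are chr13:28953700-28953949 for Sox4, chr16:92826075-92826324 for the distal start of Runx1 and chr16:92697330-92697579 for its proximal start.

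Sox4: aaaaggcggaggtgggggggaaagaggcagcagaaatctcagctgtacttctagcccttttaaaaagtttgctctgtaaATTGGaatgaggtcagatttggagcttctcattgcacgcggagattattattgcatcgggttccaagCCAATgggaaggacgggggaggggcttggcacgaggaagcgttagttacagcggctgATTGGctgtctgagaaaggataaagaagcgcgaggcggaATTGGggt

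Runx1 distal start: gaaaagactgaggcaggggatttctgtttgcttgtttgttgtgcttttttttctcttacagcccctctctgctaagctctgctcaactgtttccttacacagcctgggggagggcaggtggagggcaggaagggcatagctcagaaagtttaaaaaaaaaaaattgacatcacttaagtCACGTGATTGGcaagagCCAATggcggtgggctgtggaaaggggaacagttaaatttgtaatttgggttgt

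Runx1 proximal start: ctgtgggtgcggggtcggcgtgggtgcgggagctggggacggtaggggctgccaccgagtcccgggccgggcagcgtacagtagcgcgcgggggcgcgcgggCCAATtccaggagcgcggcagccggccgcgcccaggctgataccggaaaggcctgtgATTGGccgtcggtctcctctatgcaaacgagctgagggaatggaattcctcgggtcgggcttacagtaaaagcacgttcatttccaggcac

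Sox4 held 4 CCAAT boxes, at 171, 104, 47 and 8 bases before the start. The distal Runx1 window held 2, at 65 and 54 bases, and 1 E-box at 71 bases. The proximal window held 2 CCAAT boxes, at 148 and 91 bases. A CCAAT box was present in 33.8% of 32851 windows of the same length and an E-box in 6.02%. The response element that NR4A monomers bind, letters AAAGGTCA, and the RUNX site, letters TGTGGT, occurred in 1.34% and 14.0% of all windows and in 0 of the 5 windows of these genes. The matches are a description of letters and show no binding.

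Mn1 encodes a transcriptional co-regulator that is fused to ETV6 in some leukaemias and that is itself leukaemogenic when overexpressed in mouse marrow. Its 1 probe set, 1454867_at, read 904.2, 660.9 and 1094.7 in WT replicates 1 to 3. In the DKO replicates it read 155.5, 92.4 and 212.4. Every DKO array was below every WT array. Mean signal went from 887 ± 217 (SD, n = 3) to 153 ± 60.03 (n = 3), a log2 difference of -2.45 ± 0.37 (SE), 95% interval -3.26 to -1.64. This equals a 5.46-fold lower level on the log2(signal + 16) scale, and adjusted p from limma was 0.0078. With an array left out the difference lay between -2.70 and -2.16 and adjusted p between 0.00656 and 0.049, so that all 6 cases passed. Without WT replicate 2, in which Mn1 was lowest among the WT arrays, the difference was -2.64.

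Markers of stem cells moved the same way. Of 11 measured stem cell markers 10 were lower in DKO and 5 fell, with a median log2 difference of -1.29 and a lowest value of -1.70, against a median of -0.0078 over all genes. The 5 falls became 2 without WT replicate 1 and 0 when the fit used no intensity trend, while 10 markers stayed lower in both. Their summed signal ranged from 22651 to 26564 for WT, and from 8836 to 10502 for DKO. In such bulk samples fewer cells of a type and less RNA per cell cannot be told apart, and the part of cell composition in the Mn1 result was not tested. Mn1 stood below the lowest of the 11 markers, though this difference was not tested. Signals of other lineages were higher in DKO. The 12 mast cell, basophil and eosinophil markers were all higher, with summed signals of 2873 to 13878 in WT and 27534 to 34383 in DKO. The 12 measured T and NK cell markers were also all higher, with 867 to 1708 against 10333 to 15120. Of 6 plasma cell markers 4 were higher and 2 rose, with sums of 3132 to 4096 and 19565 to 47092. Of the neutrophil, erythroid and megakaryocyte markers (9, 7 and 5 measured), 0 passed (limma; 0, 3 and 0 at an unadjusted p under 0.05). Endothelial and stromal markers, which could stand for other non-lineage cells, were lower in 6 of 12 with a median of -0.049.

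The genes whose pattern over the 6 arrays was nearest to that of Mn1 were Trpc6, a cation channel gene, Emcn, which encodes the surface sialomucin endomucin, and Vnn1, the pantetheinase vanin. Likeness was the root mean square distance of log2 values centred on each gene's mean, and stood at 0.22, 0.34 and 0.35. Trpc6 signal was 431 ± 164 (SD, n = 3) in WT and 70.9 ± 14.4 (n = 3) in DKO, Emcn 696 ± 116 and 173 ± 55.8, and Vnn1 259.7 ± 38.9 and 56.5 ± 22.4. In each of the 3 genes, as in Mn1, the lowest array was DKO replicate 2. Because likeness was taken over all 6 arrays, the nearest genes share the group difference of Mn1 by construction. Their likeness to Mn1 array by array, the low DKO replicate 2 included, also follows from this choice.

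**Figure D3:**
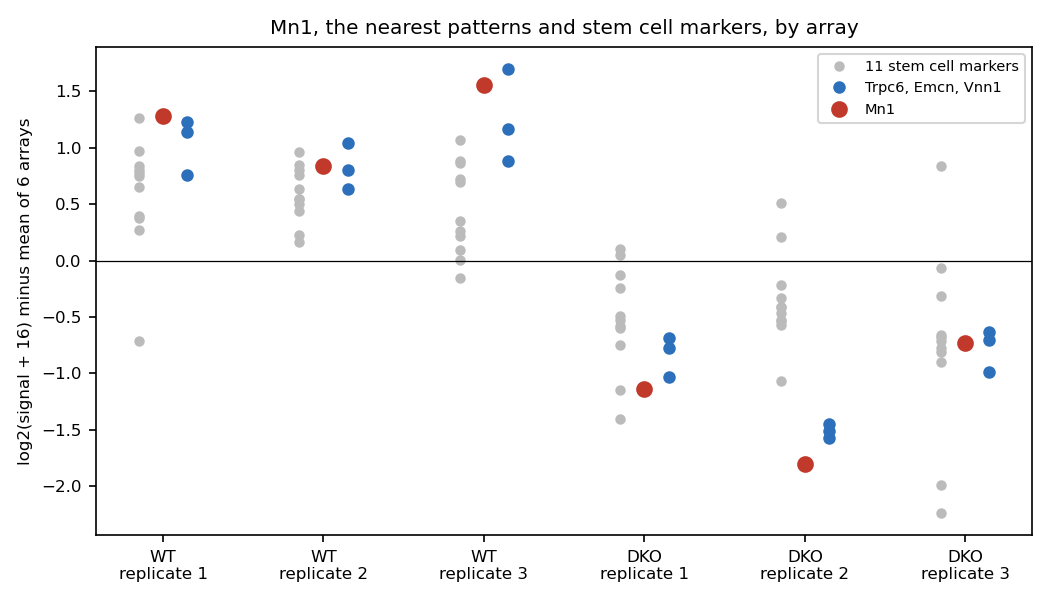
Log2(signal + 16) minus the mean of the 6 arrays (vertical axis) for Mn1 (red), the 3 genes nearest to it (blue) and 11 stem cell markers (grey), by array. Mn1 runs from 1.55 in WT replicate 3 to -1.80 in DKO replicate 2, and 10 of the 11 markers have a lower mean in DKO.

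Sox4 encodes a SOXC transcription factor with roles in early B cell development, and it is a frequent site of retroviral insertion in mouse leukaemia. Its brightest probe set, 1433575_at, read 3455.1, 2430.4 and 2908.7 in WT and 1914.3, 1759.7 and 1127.9 in DKO. The next, 1449370_at, read 1299.0, 953.0 and 1212.0 in WT and 698.0, 689.6 and 704.6 in DKO. In both, all DKO arrays were below all WT arrays. The log2 differences were -0.89 ± 0.24 (SE) and -0.70 ± 0.24, and neither passed over all probe sets (limma, adjusted p = 0.109 and 0.203). Their 95% intervals, -1.42 to -0.36 and -1.23 to -0.18, exclude 0 before adjustment. Over all alternatives that used the brightest probe set it lay between -1.03 and -0.66 and did not pass at 0.05, with adjusted p from 0.0845 to 0.315.

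The 3 other tested Sox4 probe sets did not share this. Probe set 1419155_a_at read 120.4, 128.0 and 123.2 in WT and 115.6, 113.1 and 102.7 in DKO. These groups also did not overlap, but the log2 difference was only -0.15 ± 0.39 (SE). Probe set 1419156_at, at 300.3 ± 28.5 (SD, n = 3) and 339 ± 217 (n = 3), differed by 0.0054, and its DKO mean rested on 589.3 in DKO replicate 3. Probe set 1455867_at was higher in DKO, by 0.99 ± 0.61 (SE), with overlapping groups. The other 3 probe sets were below the filter. Averaging the 5 tested probe sets of Sox4 gave -0.15 (adjusted p = 0.821), so the reading of Sox4 depends on which probe set is taken. B lineage markers were lower beside it, in 9 of 9 measured genes of which 1 fell. Their summed signal was 3324 to 11075 in WT, highest in WT replicate 2, and 1854 to 2324 in DKO, and their part in the Sox4 values was not tested. Without WT replicate 2 the brightest Sox4 probe set was at -1.01.

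Among 8 measured genes of the SOXC family and of WNT signalling, which shares partners with SOX4, 6 were lower and 0 passed (limma; 2 at an unadjusted p under 0.05), with a median of -0.19. The relatives Sox11 and Sox12 differed by -0.36 ± 0.44 (SE) and -0.19 ± 0.23. The smallest p in the list were those of Axin2, a WNT feedback gene, at 2.19 ± 0.60 (adjusted p = 0.111), and Tcf7l2, a WNT effector, at -0.98 ± 0.28 (adjusted p = 0.131). Axin2 signal was 7.3, 48.7 and 79.4 in WT and 385.3, 116.3 and 243.9 in DKO. Its WT mean of 45.1 lies below the filter limit, a signal of about 53.2, so it was tested only through its DKO level.

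Myc encodes the transcription factor that drives growth and ribosome production. Its probe set 1424942_a_at read 1942.1, 1401.0 and 2242.3 in WT and 2706.4, 2621.5 and 2797.1 in DKO. All DKO arrays were above all WT arrays, and they lay closer together, at 2708 ± 87.8 (SD, n = 3) against 1862 ± 426 (n = 3). The log2 difference of 0.56 ± 0.21 (SE, 95% interval 0.10 to 1.03) did not pass over all probe sets (limma, adjusted p = 0.249). It was 0.37 without WT replicate 2, the lowest array, and 0.71 without WT replicate 3, with adjusted p between 0.1655 and 0.456 over all alternatives.

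Genes that MYC is known to activate were mostly higher in DKO by small amounts. Of 31 measured target genes 28 were higher, against 49.2% of all genes, and the median log2 difference was 0.31, against -0.0078 over all genes. The groups did not overlap in 11 that were higher and in 1 that was lower, where all genes gave 10.7% and 11.3%. Over the other settings and with each array left out, 27 to 30 genes were higher, the 30 with the mean over tested probe sets, with a median from 0.24 without WT replicate 2 to 0.42 with median centring, which moved the median of all genes to 0.0996. Only Nolc1, a nucleolar phosphoprotein gene, rose, from 2385 ± 54.9 (SD, n = 3) to 4661 ± 1117 (n = 3), a log2 difference of 0.93 ± 0.20 (SE, adjusted p = 0.0466). It passed in 1 of the 6 fits that each omitted an array, the one without DKO replicate 2, and adjusted p reached 0.152. The lactate dehydrogenase gene Ldha (0.74 ± 0.17) and Shmt2 of serine metabolism (0.97 ± 0.29) did not pass. Tert, the telomerase catalytic subunit, was the lowest target at -1.27 ± 0.35 (adjusted p = 0.108). Summed signal of the list was 160635 to 182621 in WT and 195553 to 230060 in DKO. Many of these genes are active in any dividing cell, and the part of the other lineages in their levels was not tested.

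**Figure D4:**
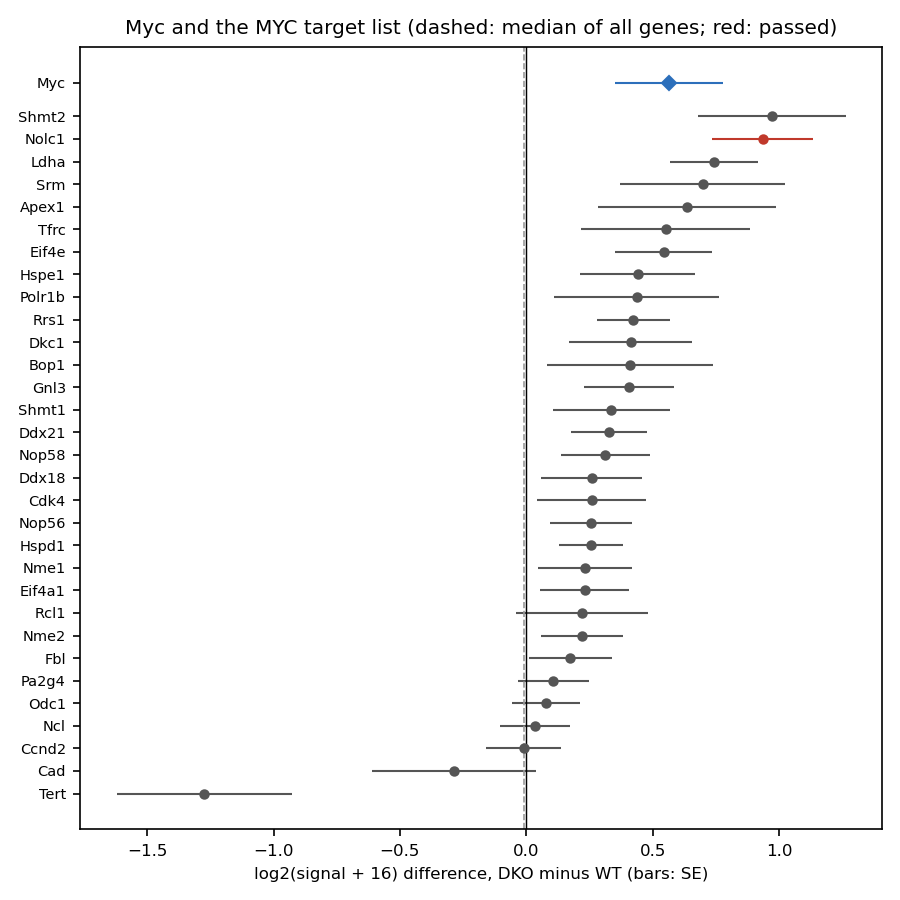
Log2(signal + 16) differences, DKO minus WT, with SE (horizontal axis) for Myc (blue) and 31 genes of the MYC target list, in order of the difference. The list runs from -1.27 (Tert) to 0.97 (Shmt2), with 28 genes above 0 and Nolc1 (red) past the threshold.

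Within the MYC network of partners, antagonists and kinases, 12 of the 19 that could be measured were lower, the median was -0.16 and 0 were past the threshold (limma; 4 at an unadjusted p under 0.05). Mycl, a MYC relative, had the smallest p. It read 20.5, 27.7 and 3.3 in WT and 139.3, 66.7 and 332.4 in DKO, a log2 difference of 2.39 ± 0.60 (SE, adjusted p = 0.0803) that was 1.45 with a pseudocount of 64. All 3 WT signals lie below the filter limit, so Mycl was tested only through its DKO signals and fell below the filter when any DKO array was left out. Mxd1, a MYC antagonist, was at 0.95 ± 0.35 (adjusted p = 0.240), with WT replicate 2, at 3620.2, among the DKO arrays (3026.2 to 4187.1). Without that array it was at 1.44 (adjusted p = 0.0117).

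The subunits of core-binding factor differed by less than the spread between arrays. Runx1, the DNA-binding subunit, read 5228.2, 4070.6 and 4426.1 in WT and 5107.3, 4981.0 and 4702.5 in DKO at its brightest probe set, 1422864_at. These groups overlap, and the log2 difference was 0.11 ± 0.16 (SE), with a 95% interval of -0.24 to 0.47 that corresponds to 0.847-fold to 1.38-fold. The second probe set, 1422865_at, was at 1556 ± 413 (SD, n = 3) and 1576 ± 353 (n = 3). The other 3 tested probe sets, at 0.16, -0.023 and -0.68, had wider intervals, and for the last of them, 1427650_a_at, it ran from -2.24 to 0.88. Cbfb, the partner that stabilises RUNX1 on DNA, read 8304.7, 6615.6 and 6595.0 in WT and 8027.7, 7754.8 and 6541.4 in DKO. Its groups overlap as well, and its difference of 0.056 ± 0.16 (SE) had a 95% interval of -0.29 to 0.40. The adjusted p of these Runx1 and Cbfb probe sets lay between 0.728 and 0.993 (limma).

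Runx1t1, also called ETO, is the fusion partner of RUNX1 and is expressed mainly outside the blood system. Its 6 probe sets read between 0.3 and 76.9 in the 6 arrays, and their means lay under the limit of the filter. The brightest, 1437784_at, read 35.2, 76.9 and 9.5 in WT and 54.5, 12.5 and 2.2 in DKO. At such signals the values have little order and a difference is not detectable. When all probe sets were tested the 6 had adjusted p between 0.677 and 0.937. The plot of every probe set of Runx1, Runx1t1 and Sox4 shows how far the probe sets of 1 gene lie apart, since probes differ in their own brightness.

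**Figure D5:**
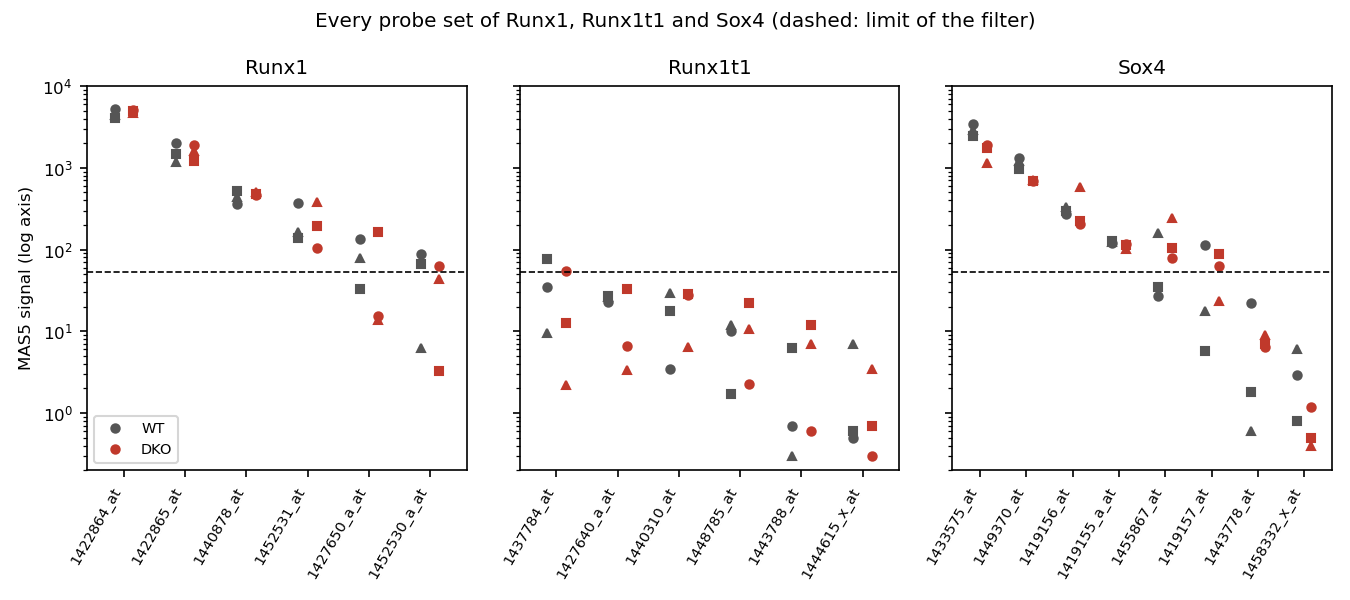
MAS5 signal on a log axis for every probe set (horizontal axis) of Runx1, Runx1t1 and Sox4, in WT (grey) and DKO (red), with replicates as circles, squares and triangles. The dashed line is the filter limit of 53.2, below which all 6 Runx1t1 probe sets have their mean log2 level.

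Of 17 relatives and cofactors of core-binding factor, 12 were lower, with a median of -0.11. Erg, an ETS factor that works with RUNX1 in stem cells, fell from 6293 ± 687 (SD, n = 3) to 3653 ± 430.1 (n = 3), by 0.78 on the log2 scale (SE 0.17, adjusted p = 0.0474), and 0 rose (4 lower and 1 higher at an unadjusted p under 0.05). Leaving out each array in turn kept the call in 1 of 6 fits, and adjusted p reached 0.190. Runx3 was at 0.25 ± 0.18 and did not pass. Runx2 was not analysed here. Known target genes of RUNX1 were higher in 9 of 12 measured, against 49.2% of all genes. Their median was 0.52, against -0.0078 over all genes. Of the 12, 2 rose, where 1.08% of all genes did (limma; 3 higher and 1 lower at an unadjusted p under 0.05). Csf2rb, the common receptor chain for GM-CSF, IL-3 and IL-5, rose from 2162 ± 320.03 (SD, n = 3) to 4843 ± 611 (n = 3), by 1.16 on the log2 scale (SE 0.19, adjusted p = 0.0117). Cebpa, a driver of granulocyte fate, rose from 607 ± 50.4 to 1459.6 ± 133 (log2 1.24, SE 0.23, adjusted p = 0.0242). These calls held in 3 and 1 of the 6 fits that omitted an array. Both genes are expressed in myeloid cells, whose marker lists did not all move alike. The monocyte, macrophage and dendritic cell list had 9 of 11 genes higher with 4 risen, and summed signals of 2289 to 7324 in WT and 11818 to 13761 in DKO. Of 9 neutrophil markers 6 were lower, with a median of -0.075 and 0 past the threshold. The part of myeloid cells in the 2 rises was not tested.

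Npm1 encodes nucleophosmin, an abundant nucleolar chaperone whose mutation is among the most frequent in human acute myeloid leukaemia. Probe set 1432416_a_at read 26460.5, 27101.9 and 28406.7 in WT and 22962.8, 25518.4 and 33580.4 in DKO. The DKO arrays enclosed the WT arrays, with a larger spread. The log2 difference was -0.017 ± 0.14 (SE), 95% interval -0.33 to 0.29, which corresponds to 0.798-fold to 1.22-fold. The other probe set, 1415839_a_at, was at 13070.3 ± 1522 (SD, n = 3) and 13423 ± 2584 (n = 3), and DKO replicate 3 was the highest array at both. Quantile normalization moved the first to 0.23 (adjusted p = 0.146), so the sign of a change this small depends on the scaling. Of 9 measured nucleophosmin partners 4 were lower and 5 higher, with 0 past the threshold (limma; 0 at an unadjusted p under 0.05). Nop53, a nucleolar protein gene, and Ctcf, the insulator protein gene, had the smallest p, at -0.33 ± 0.18 and -0.19 ± 0.15. Npm2 and Npm3 were not analysed here.

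Nf1 encodes neurofibromin, a GTPase-activating protein that turns RAS off, and Evi2a is a small gene that lies inside Nf1 and marks a retroviral insertion site. In the RefSeq annotation Evi2a, Evi2b and Omg all 3 lie within the bounds of Nf1. Nf1 probe set 1452525_a_at read 632.8, 154.6 and 200.1 in WT and 280.2, 224.0 and 201.2 in DKO. WT replicate 1 stood far above the rest, and the difference of -0.21 ± 0.48 (SE) became 0.38 without it. Probe set 1438067_at, at 163 ± 80.8 (SD, n = 3) and 198 ± 57.8 (n = 3), differed by 0.31 ± 0.44 (SE), and the third, 1441523_at, was below the filter. Evi2a read 315.2, 635.2 and 275.7 in WT and 486.0, 399.5 and 455.1 in DKO at probe set 1450241_a_at, where the highest and the lowest array were both WT. Its log2 difference was 0.21 ± 0.36 (SE), and that of its other probe set, 1443894_at, 0.31 ± 0.34. None of these passed (limma, adjusted p from 0.740 to 0.894). Omg, at 56.6 ± 22.7 (SD, n = 3) and 50.5 ± 33.6 (n = 3), was below the filter. Evi2b was not analysed here, since no probe set carries its symbol alone.

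RAS GTPase-activating proteins and other RAS regulators showed 0 genes past the threshold among 17 measured (limma; 1 at an unadjusted p under 0.05). Of them 10 were lower, with a median of -0.069. The smallest p were those of Rasgrp3, a RAS activator, at -1.39 ± 0.33 (SE, adjusted p = 0.0684, and 0.0491 with array quality weights), and Rasal2, a RAS GTPase-activating protein, at -0.94 ± 0.50 (adjusted p = 0.423).

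Wt1 encodes a zinc finger transcription factor that is often overexpressed in leukaemic blasts. Its 1 probe set, 1425995_s_at, read 2.8, 14.5 and 14.9 in WT and 17.0, 4.0 and 2.0 in DKO. The highest of these signals, 17.0, is far below the filter limit, and no array of either group stood out.

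Further genes were counted beside the 10, from lists of leukaemia genes and of relatives, partners, regulators and targets of the 10. Across all lists of related genes 179 further genes were measured, of which 5 fell (2.79%) and 3 rose (1.68%), against 0.633% and 1.08% of all genes. The lists were chosen with earlier results of these data known, so these shares are not an independent comparison. The falls were Erg, Flt3, Mllt3, Prdm16 and Evi5. The rises were the RUNX1 targets Csf2rb and Cebpa and the MYC target Nolc1. Mllt3 is itself among the 11 stem cell markers, of which 10 were lower with a median of -1.29, and the part of cell composition in the falls was not tested. Among 10 signalling genes 1 fell, Flt3, a receptor tyrosine kinase gene of early progenitors, from 1737 ± 364 (SD, n = 3) to 579 ± 25.3 (n = 3). It was lower by 1.54 on the log2 scale (-1.54 ± 0.25 SE, adjusted p = 0.0108), and 3 of the 6 fits that omitted an array kept the call. Among 25 fusion partner genes 16 were lower and 2 fell, Erg and Mllt3. Mllt3, a fusion partner of KMT2A, went from 4080.3 ± 255 (SD, n = 3) to 1665 ± 135 (n = 3), a log2 difference of -1.29 ± 0.18 (SE, adjusted p = 0.00458), and passed whichever of the 6 arrays was omitted. Among 21 genes of retroviral insertion sites, Sox4 included, 15 were lower and 2 fell. Prdm16, a zinc finger gene of stem cells, went from 1483 ± 202 to 572 ± 178 and Evi5, a cell cycle regulator, from 1771 ± 262 to 817 ± 72.1. Their log2 differences were -1.38 ± 0.28 (SE) and -1.10 ± 0.22, with adjusted p of 0.0350 and 0.0386, kept in 2 and 0 of the 6 fits that omitted an array.

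Genes of the cohesin ring and of splicing, which are often mutated in leukaemia, lay close to 0. Their 11 differences ran from -0.35 (Smc1a) to 0.25 (U2af1) with a median of 0.033, and 0 passed (limma; 0 at an unadjusted p under 0.05). Among 13 other transcription factors and tumour suppressors 7 were lower, with a median of -0.067 and 0 past the threshold (limma; 4 at an unadjusted p under 0.05). The smallest p there were those of Gata1, a regulator of erythroid, megakaryocyte, mast cell and eosinophil fate, at 1.27 ± 0.34 (SE, adjusted p = 0.0981), and of Klf6 at -0.58 ± 0.22 (adjusted p = 0.242). Gata1 read 161.0, 217.9 and 148.4 in WT and 406.2, 463.9 and 458.6 in DKO.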

How the data were processed

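RNA of 6 samples was measured on Affymetrix mouse arrays. The deposited table holds 1 linear intensity per probe set and array, made with MAS5 per the submitters' processing notes, with no version or detection calls used here. The authors' scaling, a trimmed mean of 500.0 on every array (2% trimmed at each end), was kept, and median signals were 91.6 to 122.5. No batch or date is given in the sources used here, and the number of arrays limits the precision. Replicates are separate pools per the labels.

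From 45101 probe sets 64 controls were left out. Platform annotation gave 34945 a single symbol, of which 34741 were matched to RefSeq (GRCm38.p6). Another 932 carry several symbols and 9160 are unnamed here; 1 probe set that names Evi2a among others was not used. Log2(signal + 16) was tested for the 27022 probe sets left by the filter, with limma 3.58.1 in R 4.3.3 (lmFit, eBayes with intensity trend), DKO against WT, two-sided, Benjamini-Hochberg adjusted over all of them. A gene (11529 tested) stands for its brightest probe set. Such log2 differences understate changes of dim genes. The fit was tested on simulated data. With 3 arrays a group, a difference that did not pass is not shown to be absent. The members, gene lists and cell markers were chosen with earlier results of these data known. Named are all members, per list up to 4 genes past the threshold or else the 2 with the smallest p, genes nested in Nf1, RUNX, SOXC and nucleophosmin relatives, Nr4a1 and Nr4a3, and the 3 genes nearest to a changed member; Ldha, Shmt2 and Tert and the list extremes were named after their values were seen. Alternative fits changed the pseudocount (1 or 64), the filter (none or 60%), the scaling (quantile, median centring), the trend, the weighting of arrays, the replicate block or the threshold (0.1), omitted each array, or averaged the tested probe sets of a gene. Over all probe sets the median log2 difference was -0.051, and 0.056 after median centring. Figures used matplotlib 3.10.9 in Python 3.11.15.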

Additional observations from a re-analysis of the deposited data

How the results depend on the processing

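The fall of Mn1 passed in all 17 alternatives, with log2 differences between -2.70 and -2.14 and adjusted p between 0.00357 and 0.049, and the counts of 1 fallen and 0 risen gene among the 10 held in each of them. Of the further list genes, 5 fell and 3 rose. These falls were 2 with no filter, 2 with median centring, 2 with the replicate block and 0 without an intensity trend, and 1 to 4 with an array left out. The rises were 0 without an intensity trend, 6 with array quality weights, 8 at a threshold of 0.1, 6 with the mean over the tested probe sets of a gene, and 0 to 6 with an array left out. The replicate numbers share only a number. Same-numbered WT and DKO arrays had correlations of their deviations of 0.14, -0.031 and 0.053, and the block left 1 fall among the 10 genes and 2 falls and 3 rises among the further genes. Differences near 0 changed sign and did not pass. With an array left out, Runx1 probe set 1422865_at lay between -0.15 and 0.22 and 1452531_at between -0.46 and 0.40, Cbfb between -0.0014 and 0.17, Npm1 probe sets 1432416_a_at and 1415839_a_at between -0.17 and 0.10 and between -0.12 and 0.11, Nf1 1452525_a_at between -0.59 and 0.38, Evi2a 1450241_a_at between -0.0092 and 0.57, and Sox4 1419156_at between -0.46 and 0.27. Quantile normalization gave 0.062 for Runx1 1452531_at, -0.0034 for Cbfb and 0.23 for Npm1 1432416_a_at. Median centring gave 0.084 and 0.091 for Runx1 1452531_at and Npm1 1432416_a_at. Array weights gave -0.043 for Npm1 1415839_a_at and -0.11 for Sox4 1419156_at, which was at -0.0014 with a pseudocount of 1. Averaging the tested probe sets of the gene gave -0.081 for Runx1, 0.0059 for Npm1 and 0.050 for Nf1. The number of rises was 6 without WT replicate 2 and 0 without WT replicate 1, DKO replicate 1 or DKO replicate 3. The cause of these shifts was not tested. Low signal limits Wt1, Runx1t1 and the dim probe sets of Sox4, Runx1 and Nf1. With all probe sets tested, the 1 Wt1 and 6 Runx1t1 probe sets did not pass.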
